A study of Homo sapiens with 4 samples.

Results

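The genes described here are 9 receptors through which blood-forming cells receive growth factor and cytokine signals, taken as a named set from the 57992 genes of the count table. They are the receptor tyrosine kinases FLT3, KIT and CSF1R and the class I cytokine receptor chains CSF2RA, CSF2RB, CSF3R, IL3RA, IL6R and PRLR. The set was put together with the contrast of these samples in view, and PRLR was included for its rise, so the receptors' own values are given as a description without p-values. RNA was sequenced from bulk cultures of OCI-AML3, an established human acute myeloid leukemia (AML) cell line that carries a mutant (mtNPM1) and a normal copy of NPM1, a heterozygous DNMT3A mutation and a homozygous NRAS mutation. Cells of both groups were kept in medium with fetal bovine serum, alpha-MEM by the labels and RPMI by the paper's methods, and collected 3 days (72 hours) after transfection. The sgNeg group received the control guide, called sgRNA Ctrl in the paper, and the sgNPM1A group received the guide against the mutant NPM1 allele (mtNPM1 KO), with 2 libraries per group and 4 in all. The comparison asks how receptor mRNA differed once mtNPM1 was targeted.

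FLT3, KIT and CSF1R are single-chain receptors whose cytoplasmic part is itself a kinase, switched on when FLT3 ligand, stem cell factor or macrophage colony-stimulating factor (M-CSF) joins a pair of chains. Class I cytokine receptors have no kinase of their own and signal through bound JAK kinases, which phosphorylate STAT factors. CSF2RB is the shared signalling chain that pairs with CSF2RA for GM-CSF and with IL3RA for interleukin-3, CSF3R is the G-CSF receptor of the neutrophil lineage, IL6R binds interleukin-6 and signals through IL6ST, and PRLR, the prolactin receptor, is best known from mammary gland and acts mainly through JAK2 and STAT5.

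The 250 bases before the annotated starts are shown for the 5 receptors whose mRNA was higher with sgNPM1A, to be read beside their values. They are RefSeq sequences of GRCh38.p14, printed 5′ to 3′ on the gene's strand and ending at the base before the start. Capitals mark matches, on either strand, to GAGGAA (PU.1 core), TTNNGNAA (C/EBP), TGTGGT (RUNX core), TGACAG (MEIS core) or TGATTNAT (HOX-PBX). The windows are chr5:35230488-35230737 and chr5:35118123-35118372 for PRLR, chr5:150086555-150086804 for CSF1R, chr1:36482914-36483163 for CSF3R and chr13:28100577-28100826 for FLT3, all on the minus strand, and chr1:154405093-154405342 on the plus strand for IL6R. CSF1R and CSF3R each have a further start upstream, and the one nearer to the gene body is shown. The outer CSF3R window, not shown, held 3 C/EBP matches, while the shown one held none. The outer CSF1R window, also not shown, held a MEIS match and none of the other letters.
PRLR, outer start: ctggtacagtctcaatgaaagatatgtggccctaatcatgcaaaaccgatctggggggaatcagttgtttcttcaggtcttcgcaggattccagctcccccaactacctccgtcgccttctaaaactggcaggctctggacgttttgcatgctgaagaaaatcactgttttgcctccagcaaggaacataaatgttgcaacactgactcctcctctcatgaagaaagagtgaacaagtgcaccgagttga
PRLR, inner start: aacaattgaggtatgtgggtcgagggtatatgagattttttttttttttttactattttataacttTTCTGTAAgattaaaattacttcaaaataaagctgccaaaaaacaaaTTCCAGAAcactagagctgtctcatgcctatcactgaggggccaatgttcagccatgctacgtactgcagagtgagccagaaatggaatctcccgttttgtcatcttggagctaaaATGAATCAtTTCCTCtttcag
CSF1R: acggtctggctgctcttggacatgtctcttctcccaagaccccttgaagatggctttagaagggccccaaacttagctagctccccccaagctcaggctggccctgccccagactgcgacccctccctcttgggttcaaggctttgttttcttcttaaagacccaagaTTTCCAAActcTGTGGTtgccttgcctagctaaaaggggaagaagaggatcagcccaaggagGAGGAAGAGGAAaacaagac
CSF3R: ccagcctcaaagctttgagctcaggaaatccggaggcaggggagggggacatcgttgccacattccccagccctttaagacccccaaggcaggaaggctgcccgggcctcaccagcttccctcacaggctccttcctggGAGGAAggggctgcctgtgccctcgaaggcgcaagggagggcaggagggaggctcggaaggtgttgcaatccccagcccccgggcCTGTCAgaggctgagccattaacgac
FLT3: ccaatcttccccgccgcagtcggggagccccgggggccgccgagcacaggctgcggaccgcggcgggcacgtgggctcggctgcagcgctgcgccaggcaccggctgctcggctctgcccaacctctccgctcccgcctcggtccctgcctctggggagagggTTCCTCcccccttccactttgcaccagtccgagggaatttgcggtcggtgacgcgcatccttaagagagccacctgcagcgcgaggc
IL6R: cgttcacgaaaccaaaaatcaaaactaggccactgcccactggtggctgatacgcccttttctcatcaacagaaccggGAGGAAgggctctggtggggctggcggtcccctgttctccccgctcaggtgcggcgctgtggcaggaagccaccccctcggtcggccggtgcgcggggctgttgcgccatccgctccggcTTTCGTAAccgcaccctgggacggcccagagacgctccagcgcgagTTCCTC

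A PU.1 core match was present in 6 of the 11 windows of the 8 receptors with an entry, against 23.6% of all 35093 RefSeq windows of this length, and a C/EBP match also in 6 of the 11, against 33.2%. In the CSF1R window, matches began 82 bases (C/EBP), 71 bases (RUNX) and 20 and 14 bases (PU.1) before the start. The RUNX core was found in that window alone among the 11, against 11.0% of all windows. The outer PRLR window held none of the letters searched. The inner one held 2 C/EBP matches, a PU.1 match 12 bases before the start and a HOX-PBX match 21 bases before it. The inner window ends in a run of T and C followed by AG, and the PU.1 match lies in that run. Whether its annotated start is a start of transcription or an exon boundary was not tested. HOX-PBX matches were present in 2.48% of all windows. G and C made up 36.4% of the inner window, against a median of 58.0% over all windows, and the shares given are not matched for this. The MEIS core (13.0% of all windows) was in 3 of the 11. The STAT motif TTCNNNGAA, 6.57% of all windows, was found only in the IL3RA window among the 11. A match is a run of letters and not a binding site, and gene counts do not tell which start was used.

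NPM1 itself, on chromosome 5 from 171387116 to 171410900, had 1352 ± 47.1 CPM (counts scaled to library size with edgeR's TMM factors; SD, n = 2) with sgNeg and 1161 ± 40.7 CPM (SD, n = 2) with sgNPM1A. The log2 ratio of sgNPM1A to sgNeg (log2 fold change) was -0.22 (SE 0.07; edgeR's quasi-likelihood test, adjusted p = 0.0360), under the fold of 1.25 used for a call. The counts add up both alleles. Library totals lay between 25069483 and 28276386, so that 3 counts, taken as the smallest count told from 0, corresponded to 0.106 to 0.120 CPM by counting error alone. A call needed a fold of 1.25 or more together with an adjusted p under 0.05 (SE stands for standard error throughout). Of 15718 genes tested, 10.5% were called higher and 10.3% lower, together 20.8%. Both sgNPM1A libraries lay above both sgNeg libraries in 31.4% of the tested genes and below them in 31.7%, together 63.1%. For single genes, 0.333 is the smallest p that exact two-sided permutation allows here, so calls rest on the spread that edgeR shares between genes.

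With mtNPM1 KO, mRNA of 5 of the 9 receptors was higher: PRLR, CSF3R, CSF1R, FLT3 and IL6R. Of the 9, 6 had enough counts to be tested, 5 were called higher (10.5% of all tested genes were), 0 were called lower, and CSF2RB was not called. KIT, CSF2RA and IL3RA could not be tested. In these bulk cultures more cells making a transcript and more transcript per cell cannot be told apart.

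FLT3, the receptor of early progenitors, whose gene is often mutated in AML, lies on chromosome 13 from 28003274 to 28100576. It had 275 and 237 counts in the sgNeg libraries and 562 and 580 counts in the sgNPM1A libraries. All values with sgNPM1A exceeded those with sgNeg, with means of 9.98 ± 1.18 and 20.5 ± 0.514 CPM (SD, n = 2 each) and a log2 ratio of 1.04 (SE 0.11). CSF1R, the M-CSF receptor of monocytes and macrophages, lies on chromosome 5 from 150053295 to 150113365. Its counts were 588 and 621 with sgNeg and 1449 and 1598 with sgNPM1A. The groups did not overlap, the means were 23.6 ± 0.598 and 54.8 ± 3.94 CPM (SD, n = 2 each), and the log2 ratio was 1.22 (SE 0.09). KIT, the stem cell factor receptor on chromosome 4 from 54657957 to 54740715, had 0 and 1 counts with sgNeg and 0 and 2 with sgNPM1A, at or under 3 counts in every library. No fold is given, and a difference in KIT was not detectable at this depth.

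CSF3R, on chromosome 1 from 36466043 to 36483314, had 2236 and 2389 counts with sgNeg and 6512 and 6749 with sgNPM1A. The groups lay far apart beside their spread, with means of 90.1 ± 3.03 and 238.3 ± 6.67 CPM (SD, n = 2 each). The log2 ratio was 1.40 (SE 0.07), a fold of 2.65. IL6R, on chromosome 1 from 154405343 to 154469450, had 7663 and 7079 counts with sgNeg and 10452 and 10355 with sgNPM1A. Both sgNPM1A libraries were higher, but the rise was the smallest of the 5, from 287.4 ± 19.9 to 374.0 ± 1.45 CPM (SD, n = 2 each), a log2 ratio of 0.38 (SE 0.07). Without sgNeg replicate 2 it was 0.31, less than 1.25-fold, and IL6R was then not called.

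CSF2RB, on chromosome 22 from 36913628 to 36940439, had 676 and 613 counts with sgNeg and 671 and 744 with sgNPM1A. The groups overlapped, at 25.1 ± 2.07 and 25.4 ± 1.92 CPM (SD, n = 2 each), with a log2 ratio of 0.02 (SE 0.10). Its ligand-binding partners CSF2RA (X chromosome, 1268814 to 1325218) and IL3RA (X chromosome, 1336785 to 1382689) are listed at 0 in all 4 libraries, on their X rows and on the separate rows for their Y copies. Both genes lie in the pseudoautosomal region that X and Y share. Of the 45 genes of the table with such a pair of rows, 44 are listed at 0 on both rows in all libraries, among them SLC25A6, an ADP/ATP carrier that cells use widely, and GTPBP6 and ZBED1. The zeros of CSF2RA and IL3RA therefore give no measure of their expression.

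PRLR, on chromosome 5 from 35048756 to 35230487, went from 9 and 11 counts with sgNeg to 263 and 364 counts with sgNPM1A. The sgNeg values were above 3 counts but below 1 CPM, at 0.389 ± 0.05 CPM, against 11.3 ± 2.60 CPM (SD, n = 2 each) with sgNPM1A. The log2 ratio was 4.84 (SE 0.27), a fold of 28.6 and rank 10 among the 15718 tested genes. CSF3R followed at rank 299, CSF1R at 402, FLT3 at 567, IL6R at 2499 and CSF2RB at 7483. PRLR was included for its rise, so its rank is no result. With 9 counts in an sgNeg library, PRLR passed the filter on low counts only with its sgNPM1A libraries. The tested genes whose log2 CPM in the 4 libraries, centred on the sgNeg mean, came nearest to those of PRLR by Euclidean distance were MAOB (0.312), CALB2 (0.640) and MTARC1 (0.734). MAOB, a mitochondrial monoamine oxidase, had 0 counts in both sgNeg libraries and 40 and 47 with sgNPM1A. A prior count of 2 was added before the logs were taken, and the distance of MAOB depends on it. CALB2, the calcium-binding protein calretinin, had 10 and 7 against 284 and 255 counts. These genes were picked for their likeness, which is therefore no result.

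Levels can be set beside each other only per length, here as CPM per kilobase of the gene's joined exons. With sgNeg the order was IL6R with 41.1 ± 2.84, CSF3R with 8.51 ± 0.286, CSF2RB with 5.04 ± 0.414, CSF1R with 4.57 ± 0.116, FLT3 with 2.40 ± 0.284 and PRLR with 0.0299 ± 0.0038 CPM per kb (SD, n = 2). No neighbours in this order overlapped, though CSF2RB was only 1.10 times CSF1R. With sgNPM1A the order was IL6R with 53.5 ± 0.207, CSF3R with 22.5 ± 0.630, CSF1R with 10.6 ± 0.764, CSF2RB with 5.10 ± 0.386, FLT3 with 4.94 ± 0.123 and PRLR with 0.867 ± 0.200 CPM per kb (SD, n = 2). CSF1R thus stood above CSF2RB with sgNPM1A and FLT3 reached the level of CSF2RB, whose libraries it overlapped. PRLR remained the lowest of the 6 in both groups. When the longest transcript was used as the length, CSF1R already stood above CSF2RB with sgNeg.

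**Figure D1:**
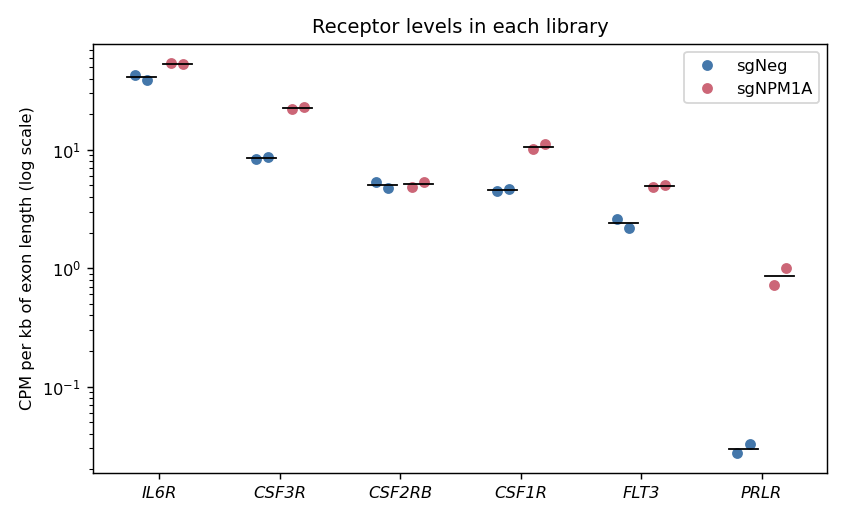
CPM per kilobase of exon length (log axis) of the 6 tested receptors in each library; points are libraries (2 per group) and bars are group means. PRLR moves from far below the other receptors to within 1 order of magnitude of FLT3 and CSF2RB, while CSF2RB stays level and IL6R is highest in both groups.

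Among the ligands of these receptors, PRL and CSF1 fell. Of the 12 ligand genes listed, 9 are at 0 in all libraries, including KITLG, CSF2, CSF3, IL3 and IL6. Of the 3 tested, 2 were called lower (10.3% of all tested genes were), with a median log2 ratio of -1.82, that of CSF1. PRL, which encodes prolactin, had 182 and 184 counts with sgNeg and 35 and 57 with sgNPM1A. It fell from 7.13 ± 0.0391 to 1.65 ± 0.564 CPM (SD, n = 2 each), a log2 ratio of -2.11 (SE 0.21, adjusted p = 2.71e-05, edgeR). Both sgNPM1A libraries were thus low for the ligand where they were high for PRLR. CSF1, which encodes M-CSF, had 40 and 39 against 12 and 12 counts, a log2 ratio of -1.82 (SE 0.31, adjusted p = 0.00130, edgeR). Its mean was under 1 CPM, below the minimum for naming, and it was chosen after its values were seen. FLT3LG had 4 and 10 against 12 and 6 counts, overlapped between the groups and was not called.

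**Figure D2:**
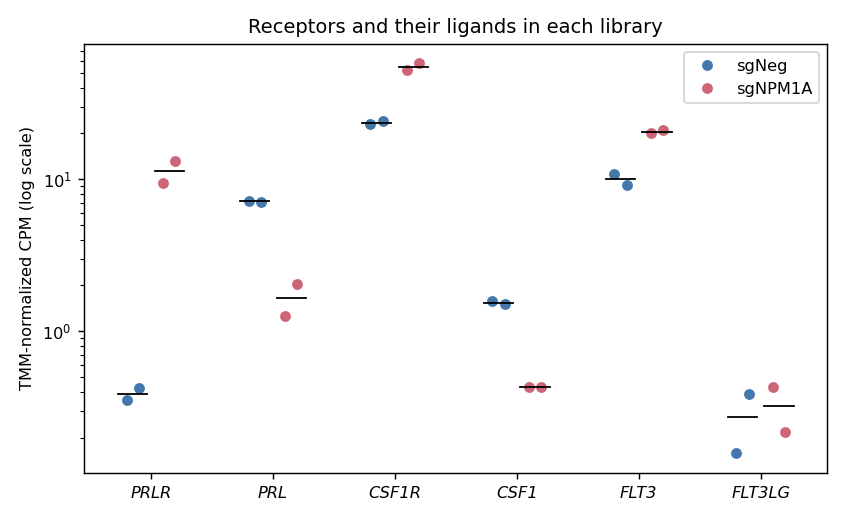
TMM-normalized CPM (log axis) of PRLR, CSF1R and FLT3 and of their ligand genes PRL, CSF1 and FLT3LG in each library; points are libraries (2 per group) and bars are group means. PRL and CSF1 are lower with sgNPM1A while PRLR and CSF1R are higher, and FLT3LG overlaps between the groups.

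Other chains of the cytokine receptor class were called in both directions. Of 22 listed, 15 were tested, with a median log2 ratio of -0.02 against 0.00 for all tested genes (errors are SDs of n = 2 libraries). Among those untested, CRLF2 and IL9R are pseudoautosomal genes, and their zeros give no measure of expression. Called higher were 2 (13.3%) and lower 4 (26.7%), against 10.5% and 10.3% of all tested genes. IL7R, the interleukin-7 receptor of lymphoid cells, fell from 28.6 ± 2.68 to 8.37 ± 1.20 CPM (log2 ratio -1.77, adjusted p = 1.95e-06, edgeR). OSMR, the oncostatin M receptor, fell from 94.0 ± 0.195 to 41.2 ± 4.95 CPM (log2 ratio -1.19, adjusted p = 3.08e-06, edgeR). GHR, the growth hormone receptor and a close relative of PRLR, fell from 3.68 ± 0.131 to 1.96 ± 0.223 CPM (log2 ratio -0.91, adjusted p = 0.00521 with edgeR and 0.0515 with DESeq2). IL12RB1, also called lower, had a log2 ratio of -0.40 (adjusted p = 0.00400, edgeR). EPOR, the erythropoietin receptor, rose by 0.57 log2 units (adjusted p = 8.01e-04, edgeR). IL11RA rose by 0.49 (adjusted p = 0.0272 with edgeR, 0.150 with DESeq2 and 0.237 without sgNPM1A replicate 1). It was also not called without sgNeg replicate 1 (0.0886) or sgNeg replicate 2 (0.0591). IL6ST, the signalling partner of IL6R, had 3.37 ± 0.293 and 3.36 ± 0.543 CPM and was not called. LIFR, with a log2 ratio of -1.09, was not called either (adjusted p = 0.0525, edgeR).

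Among 6 other receptor tyrosine kinases listed, 2 were tested, at low counts (median log2 ratio 1.65). Both were called higher, as were 10.5% of all tested genes. Neither reached the filter's minimum count of 10 in both sgNeg libraries, so both passed only with sgNPM1A libraries. The share called and the median are therefore no result about the list. FLT1, a VEGF receptor, had 16 and 8 counts with sgNeg and 45 and 47 with sgNPM1A (log2 ratio 1.81, SE 0.34, adjusted p = 0.00267, edgeR). Fits without a library put it between 1.39 and 2.40, the higher value being that without sgNeg replicate 1. PDGFRB, a PDGF receptor, had 7 and 7 against 16 and 27 counts (log2 ratio 1.49, adjusted p = 0.0315 with edgeR and 0.235 with DESeq2). It was not called without sgNeg replicate 1 (0.120), sgNeg replicate 2 (0.124) or sgNPM1A replicate 2 (0.383), and stood under 1 CPM. KDR and TEK had 0 counts in all libraries.

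Of 11 JAK and STAT genes, 10 were tested (median log2 ratio 0.25). Among these, 4 were called higher and 1 lower, beside 10.5% and 10.3% of all tested genes. JAK2, the kinase that PRLR and CSF2RB bind, had 137 and 86 counts with sgNeg and 199 and 228 with sgNPM1A, a log2 ratio of 0.82 (adjusted p = 0.0115, edgeR, and 0.0625 without sgNeg replicate 2). JAK3, used by receptors with the common gamma chain, fell by 1.10 log2 units (adjusted p = 0.0104, edgeR, 0.0795 with DESeq2 and 0.0710 without sgNeg replicate 1). STAT2 rose by 0.59 (adjusted p = 1.40e-04, edgeR) and STAT3, a main target of IL6R and CSF3R signalling, by 0.47 (adjusted p = 0.00293). STAT5B rose by 0.41 (adjusted p = 0.00707, edgeR, and 0.140 without sgNPM1A replicate 2), while its paralog STAT5A, at 26 and 34 against 22 and 17 counts, was not called. As the paralogs are nearly alike, reads between them may be shared.

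The adaptors, feedback inhibitors and STAT5 targets downstream of the receptors are given beside the 20.8% of all tested genes called in either direction. Of 9 adaptors, all tested, 0 were called higher and 2 lower (median log2 ratio -0.08). GAB1, a docking protein, fell by 1.01 log2 units (adjusted p = 4.95e-04, edgeR), and CRKL by 0.32 (adjusted p = 0.0147, edgeR, and 0.0597 and 0.0891 without sgNeg replicate 1 and sgNPM1A replicate 1). Of 12 feedback inhibitors, all tested, 2 were called higher and 1 lower (median -0.09). CISH, a STAT5-induced inhibitor of cytokine receptors, had 319 and 308 counts with sgNeg and 724 and 673 with sgNPM1A. It rose from 12.2 ± 0.465 to 25.1 ± 1.23 CPM (SD, n = 2 each), a log2 ratio of 1.04 (SE 0.10, adjusted p = 2.19e-05, edgeR). The ubiquitin ligases of receptor kinases moved apart, with CBL higher by 0.52 (adjusted p = 0.00125, edgeR) and CBLB lower, at -0.73 (adjusted p = 0.00386). SOCS2, also a STAT5-induced inhibitor, had 33 and 24 against 15 and 20 counts and was not called. Of 7 further STAT5 targets, 6 were tested, with 1 called higher and 2 lower (median -0.13). ID1 fell by 0.41 (adjusted p = 0.00330, edgeR, and 0.0742 without sgNPM1A replicate 2). OSM fell by 0.76 (adjusted p = 0.0112, edgeR, 0.0719 with DESeq2, 0.0658 without sgNeg replicate 2 and 0.0798 without sgNPM1A replicate 2). BCL6 rose by 0.47 (adjusted p = 0.0372, edgeR, and 0.188 with DESeq2), and was not called without sgNeg replicate 2 (0.150), sgNPM1A replicate 1 (0.145) or sgNPM1A replicate 2 (0.0954). Of the proteases that release receptors such as IL6R and CSF1R from the cell surface, ADAM17 fell by 0.39 (adjusted p = 0.0251 with edgeR and 0.117 with DESeq2). It was not called without sgNeg replicate 1 (0.0925), sgNPM1A replicate 1 (0.0937) or sgNPM1A replicate 2 (0.163). ADAM10 was not called.

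**Figure D3:**
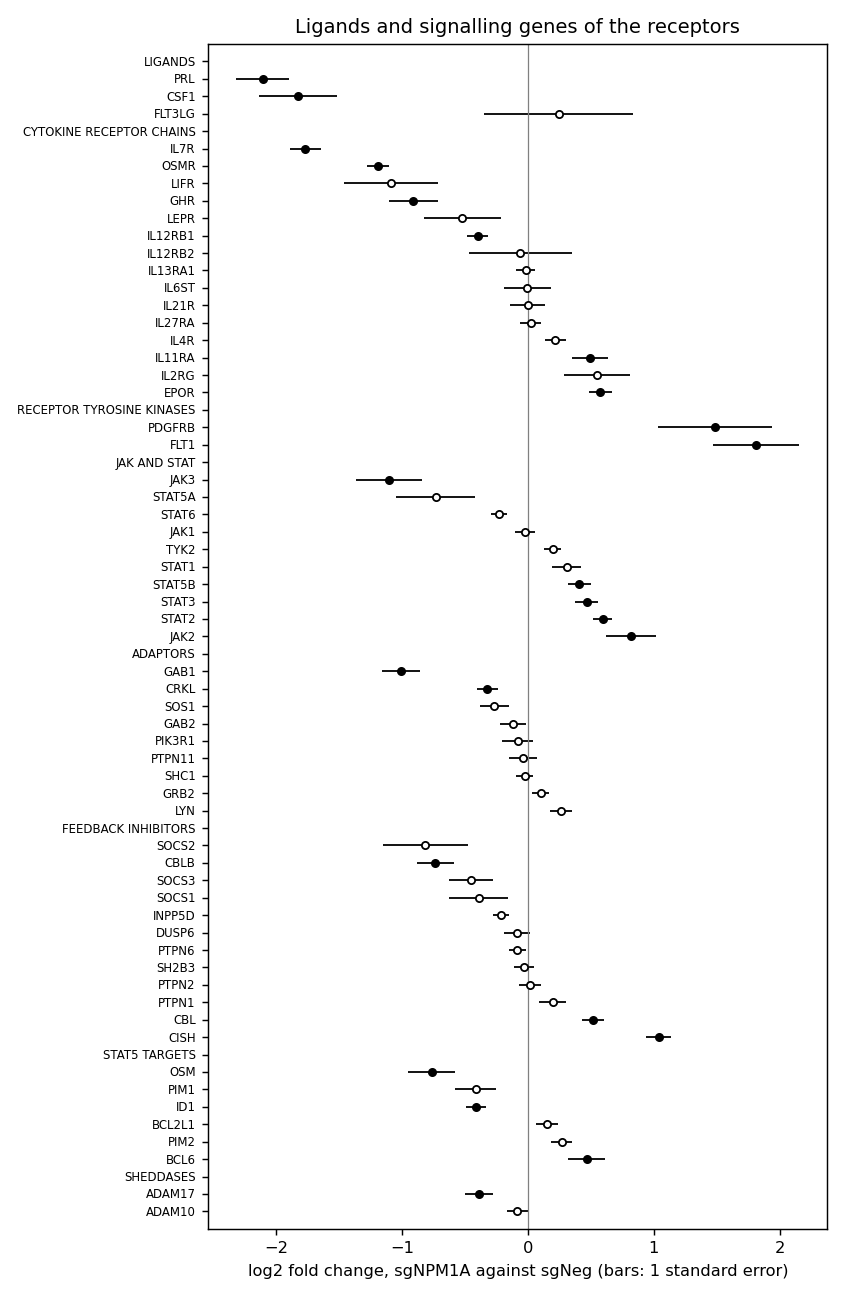
Log2 ratios of sgNPM1A against sgNeg for the tested genes of the ligand and signalling lists, grouped by role; bars are 1 standard error and filled points were called. PRL, CSF1 and IL7R lie farthest to the left, FLT1 and PDGFRB farthest to the right, and the adaptors and feedback inhibitors lie mostly around 0 with CISH at 1.04.

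Genes around the receptors were read to see how local the differences were. Of 99 protein-coding genes, other than the receptors, within 500 kb of a receptor, 65 were tested, with a median log2 ratio of 0.01. Of these 65, 7 were called higher and 9 lower, beside 10.5% and 10.3% of all tested genes. The neighbours of CSF2RA and IL3RA with a row in the count table are pseudoautosomal genes at 0, so none of them was tested. Beside PRLR, SPEF2, a gene of sperm flagella and cilia whose gap to PRLR is 387376 bases, had 94 and 101 counts with sgNeg and 389 and 343 with sgNPM1A (log2 ratio 1.79, SE 0.14, adjusted p = 4.36e-06, edgeR). The other 4 tested genes near PRLR were not called, and AGXT2, 807 bases from it, had 0 counts. CSF1R has PDGFRB 474 bases beyond its start and HMGXB3 167 bases beyond its end. HMGXB3 had 72.9 ± 3.64 and 75.7 ± 2.52 CPM (SD, n = 2 each) and was not called. FLT3 has FLT1 199770 bases away, which rose as given above, and PAN3 between them, which fell by 0.38 (adjusted p = 0.00334, edgeR, and 0.0539 without sgNPM1A replicate 1). Near CSF3R, COL8A2, a collagen gene 340821 bases away, rose from 23.5 ± 3.23 to 51.6 ± 3.65 CPM (SD, n = 2 each, log2 ratio 1.13, adjusted p = 1.47e-05, edgeR), while MRPS15, only 1659 bases away, was not called. In the same stretch MAP7D1 fell by 0.42 (adjusted p = 5.86e-04, edgeR), EVA1B fell by 0.77 (0.00235) and ADPRS rose by 0.49 (9.57e-04). Near CSF1R, SYNPO fell by 0.64 (adjusted p = 0.00202, edgeR). Near FLT3, LNX2 fell by 0.64 (adjusted p = 0.0474 with edgeR, 0.139 with DESeq2, 0.258 without sgNeg replicate 1 and 0.312 without sgNPM1A replicate 1). Near CSF2RB, TST rose by 0.35 (adjusted p = 0.00497, edgeR, and 0.0636 without sgNPM1A replicate 1), and CYTH4 fell by 0.53 (0.00954, and 0.0720 without sgNeg replicate 2 and 0.0626 without sgNPM1A replicate 2). Near IL6R, PBXIP1 fell by 0.52 (adjusted p = 0.00106, edgeR) and SLC39A1 fell by 0.41 (6.18e-04). CREB3L4, also near IL6R, fell by 0.40 (adjusted p = 0.0162 with edgeR, 0.0822 with DESeq2, and 0.118 and 0.0893 without sgNPM1A replicate 1 and 2). PMVK rose by 0.33 (adjusted p = 0.00889, edgeR) and was not called without sgNPM1A replicate 1 (0.0686) or 2 (0.0974), nor without sgNeg replicate 1, where its fold was under 1.25. SHE, 187 bases beyond the end of IL6R, had 45 and 28 against 38 and 59 counts and was not called. IL6R also overlaps the antisense gene IL6R-AS1, with 32 and 26 against 45 and 42 counts. The setting for strand in the counting is not given in the sources used here, and the counts of IL6R-AS1 are few beside those of IL6R. The pseudogene RPL7P1 inside CSF1R had 96 and 106 against 91 and 93 counts.

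**Figure D4:**
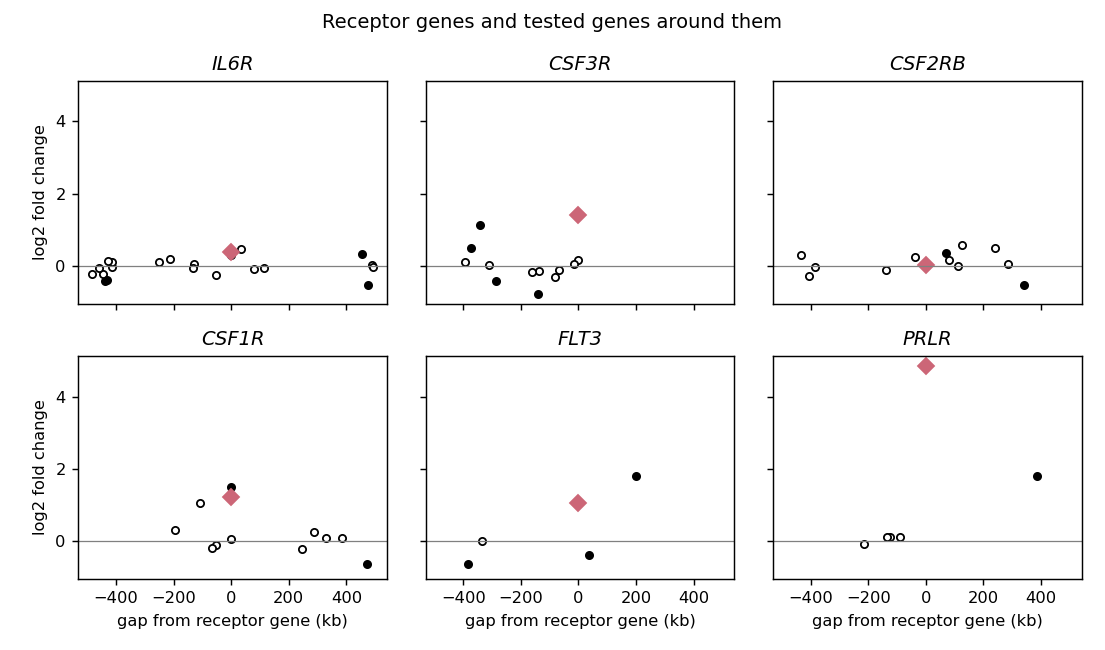
Log2 ratios (sgNPM1A against sgNeg) of tested protein-coding genes within 500 kb of each tested receptor, by gap in kilobases on the lower (left) or higher (right) coordinate side; the diamond at 0 is the receptor, and filled points were called. PRLR, CSF3R and FLT3 stand above their nearest tested neighbours. CSF1R (1.22) stands above HMGXB3 but below PDGFRB (1.49), and IL6R (0.38) is only a little above SHE (0.29). SPEF2 and FLT1 are the raised points to the right of PRLR and FLT3, and COL8A2 (1.13) is the highest to the left of CSF3R.

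Of the myeloid markers, some were called and others were not, beside 10.5% of all tested genes called higher and 10.3% lower. Of 7 myeloid identity genes 6 were tested and 3 were called higher, LYZ (lysozyme, log2 ratio 3.63), MPO (myeloperoxidase, 1.77) and SPI1 (PU.1, 0.48), and the summed level of the list went from 1832 to 1884 CPM with sgNeg to 4599 to 5359 CPM with sgNPM1A. Most of this rise was that of LYZ, without which the sum was 1613 to 1616 CPM with sgNeg and 1956 to 1992 CPM with sgNPM1A, a sum added after the data were seen. CD33 (0.06), PTPRC (CD45, -0.05) and ITGB2 (0.25) were not called. Of 6 genes of monocyte and granulocyte maturation reported here 5 were tested. ITGAM (CD11b, 2.33), FCGR1A (1.71) and FUT4 (0.69) were called higher, CD163 (-3.0), a macrophage scavenger receptor, was called lower, CD14 (0.34) was not called, and FCGR3B was at 0. No summed level is given for this list, from which 1 gene is left out here. Genes of T cells (3 of 4 at 0), erythroid and epithelial cells were not tested for want of counts, with sums of at most 0.193 CPM in any library, and of 3 B cell genes 1 was tested and not called, with sums of 1.26 to 2.05 CPM. Of 3 fibroblast genes COL1A2 and DCN were called lower, COL1A1 had 2 to 6 counts, and the sum went from 28.1 to 29.4 CPM with sgNeg to 9.62 to 13.3 CPM with sgNPM1A. The part of any of these lists in the receptors' differences was not tested.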

How the data were processed

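RNA-Seq libraries of OCI-AML3 cells (sgNeg and sgNPM1A, 2 each) were mapped by the authors with STAR to hg38, as the submitters' processing notes and the paper state, and deposited as raw counts per Ensembl gene, without normalization. The counting program, its strand setting and the annotation release are not given in the sources used here. The table has 58037 rows. The 45 rows of Y copies of pseudoautosomal genes were left out of library sizes and tests. No spike-in rows (0) are present. Symbols were matched by identifier for 55646 genes. Groups follow the labels, and the libraries, called biological replicates in the paper, are numbered only.

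Counts were filtered with filterByExpr (minimum count 10), normalized by TMM (factors 0.985 to 1.01) and compared with edgeR 4.0.16 in R 4.3.3 (robust quasi-likelihood F test, two-sided, Benjamini-Hochberg adjustment over all 15718 tested genes). The common coefficient of variation between replicates was 0.0619. Standard errors were derived from the F statistic. Error bars and SDs cover n = 2 libraries. Lengths are those of GENCODE models, and positions, promoters and neighbours those of RefSeq on GRCh38.p14. The promoter table gave windows for 8 of the 9 receptors, and CSF2RB has none in it.

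The receptors and gene lists were chosen with earlier results of these data known. From the maturation markers 1 gene is not reported here. Named genes are the receptors, NPM1, at most 5 called genes per list with a mean of at least 1 CPM, the nearest and the called neighbours within 500 kb, and the 3 genes most like PRLR. PDGFRB, CSF1, FLT3LG, IL12RB1, LIFR, IL6ST, STAT5A, SOCS2, ADAM10, the overlapping genes, the markers and the genes named at 0 were added to these with their values in view. Alternatives were DESeq2 1.42.0, limma-trend (limma 3.58.1) on quantile-normalized log2 CPM, other scalings, filters and fold thresholds, a replicate block, and leaving out each library. The comparison was tested on simulated data.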

Additional observations from a re-analysis of the deposited data

How the results depend on the processing

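With 2 libraries per group, leaving out a library leaves 1 in its group, assumed to vary like the other group. Of the receptors, 5 were called higher and 0 lower under each alternative, except for 4 higher at a fold of at least 2 (IL6R lost), 4 with at least 10 counts required in every library (PRLR, with 9 in an sgNeg library, was then untested) and 4 without sgNeg replicate 2 (IL6R). Leaving out each library gave 4 to 5. PRLR then lay between 4.58 and 5.06, FLT3 between 0.92 and 1.16, CSF1R between 1.15 and 1.29 and CSF3R between 1.37 and 1.44 on the log2 scale. CSF2RB changed sign, to -0.023 with library size only and within a range of -0.064 to 0.103 when a library was left out, as did SHE within a range of -0.059 to 0.686. NPM1 passed the call with limma-trend (-0.42, adjusted p = 0.00108) and with no fold threshold (-0.22), while its adjusted p was 0.156 with the replicate block, 0.0746 without sgNeg replicate 2 and 0.196 and 0.437 without sgNPM1A replicate 1 and 2. At a fold of at least 2, the genes called were 498 higher and 502 lower of all tested, 3 and 6 of the pathway lists and 4 and 0 of the neighbours. With no fold threshold 14 neighbours were lower. Leaving out each library gave 1223 to 1574 genes higher and 1165 to 1571 lower, 8 to 12 and 10 to 13 of the pathway lists and 5 to 9 and 6 to 10 of the neighbours. With the longest transcript as length, CSF1R was at rank 3 and CSF2RB at 4 with sgNeg, and FLT3 at 4 and CSF2RB at 5 with sgNPM1A. Nothing in the labels or the paper pairs same-numbered libraries, whose deviations had a correlation of -0.130 across genes and of -0.523 across those with a mean above 10 CPM. The replicate block gave 1637 genes higher and 1604 lower, and of the receptors 5 higher and 0 lower. The crossed block, added after the data were seen, gave 1955 and 1918. DESeq2 gave 1190 and 1142. Adding the Y rows left CSF2RA and IL3RA at 0, so that alternative gave no value. The causes of these shifts were not tested.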
